A study of Homo sapiens with 12 samples.

Results

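The 45 genes described here encode the machinery that copies DNA and the enzymes that make its building blocks, from origin licensing to ribonucleotide reductase. They were taken by name, matched by symbol to 1 Ensembl identifier each among the 40649 in every count table, and all 45 passed the filter on low counts, as did 19268 genes in all. Bulk RNA-seq gave their mRNA levels in HK-2 cells, a line of human proximal tubule cells immortalised with papillomavirus E6 and E7 genes, whose E7 protein acts on RB, the repressor of the E2F factors that drive many of these genes. The 12 libraries form 3 groups of 4. The first carries the label Yap1 knockdown and was given 150 µM H2O2, an oxidant, for 48 hours (called the labelled knockdown below). The second carries the control hairpin label ShNC and the same H2O2 (ShNC + H2O2), and the third carries ShNC with no H2O2 (ShNC). The series title names tubular cell senescence driven by oxidative stress. No group pairs the Yap1 label with untreated medium here, so the hairpin alone and the hairpin under H2O2 cannot be told apart. Nothing in the labels states separate cultures, and p-values thus cover only the spread between these libraries, which may be technical.

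DNA replication starts in G1, when the origin recognition complex, CDC6 and CDT1 load rings of the MCM2-7 helicase onto origins, a step that geminin blocks later in the cycle. In S phase CDC45 and the GINS complex join the rings to make the active helicase, polymerase alpha-primase lays down primers, and polymerases epsilon and delta extend them on the PCNA clamp, which replication factor C loads. Flap endonuclease and DNA ligase join the lagging strand, ribonucleotide reductase, thymidylate synthase and thymidine kinase supply deoxynucleotides, and CAF-1, UHRF1 and DNMT1 restore nucleosomes and methylation. Most of the genes are transcribed around the G1/S transition, and kidney tubule cells in culture, unlike the mostly quiescent tubule, cycle through it. In bulk RNA a smaller share of cells in S phase and less RNA per cell cannot be told apart.

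Total counts were 30789997 to 46582873 per library. CPM are counts scaled to library size with TMM factors. Log2 fold changes, the values with ± throughout unless CPM is written, are given with their standard error (SE) and with adjusted p-values of edgeR's quasi-likelihood test over all 19268 genes, called under 0.05. YAP1 is the gene named in the label. YAP1 had 131, 135, 111 and 136 CPM in the labelled knockdown, against 155, 151, 156 and 164 CPM in ShNC + H2O2 and 136, 130.3, 140.5 and 124 CPM in ShNC. All labelled knockdown values lay below those of ShNC + H2O2 (-0.29 ± 0.07, adjusted p = 0.00346), but they overlapped those of ShNC (-0.05 ± 0.07, adjusted p = 0.636), so against untreated cells YAP1 mRNA gave no check of the label, and directions below are those of the labelled libraries. Epithelial markers such as KRT8 and PAX8 were present, while LRP2, CUBN, AQP1 and ANPEP, markers of differentiated proximal tubule, stayed under 1 CPM in every library. Other proximal tubule markers varied, with DPP4 at 123 to 298 CPM, GGT1 at 1.43 to 7.4, SLC34A1 at 0.127 to 1.79 and SLC5A2 at 0.333 to 1.3. The epithelial marker CDH1 was at 1.07 to 6.73 CPM. Of 17 markers of other cell types 15 stayed under 1 CPM, and their summed level was 11.8 to 13.9 CPM in the labelled knockdown, 25.6 to 30.4 CPM in ShNC + H2O2 and 10.5 to 14.7 CPM in ShNC, of which COL1A1 made up 7.51 to 28.1 CPM. Their part in the results was not tested. In 2 libraries mitochondrially encoded genes took a larger share of counts, 11.3% in labelled knockdown replicate 3 and 13.9% in ShNC replicate 4, against 4.54% to 5.64% in the other 10. Differences also ran together along stretches of chromosomes. For each gene the shift of its neighbours, the median difference of the 25 tested genes on each side, was therefore also measured and removed in a further fit. The 3 comparisons share libraries with each other, so each gene's values are set side by side and no agreement between comparisons is counted.

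The promoters of these genes are known for E2F sites. Stretches around E2F-type matches are shown for 6 members, namely those where the stretch has no base in an annotated exon. The values of these members were known when the stretches were chosen. RefSeq starts (GRCh38.p14) gave 51 windows, bases -250 to -1, for 39 of the 45 members. Promoters of RPA3, POLD3, MCM5, GINS4, RPA2 and MCM4 were not analysed here. In the lines below, each 5′ to 3′ along the gene, capitals mark the matches to TTTGGCGC, TTTCGCGC, TTTCCCGC or TTTGCCGC on either strand. The stretches are PCNA (chr20:5126654-5126701, minus strand), MCM6 (chr2:135876502-135876615, minus strand), MCM3 (chr6:52284889-52284936, minus strand), POLA1 (chrX:24693761-24693808, plus strand), UHRF1 (chr19:4909964-4910011, plus strand) and GMNN (chr6:24775313-24775360, plus strand), the last 2 before the second RefSeq start of their gene.
PCNA: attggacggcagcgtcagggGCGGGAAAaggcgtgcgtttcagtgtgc
MCM6: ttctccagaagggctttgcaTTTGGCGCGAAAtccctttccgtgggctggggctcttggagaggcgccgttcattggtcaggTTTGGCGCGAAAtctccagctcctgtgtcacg
MCM3: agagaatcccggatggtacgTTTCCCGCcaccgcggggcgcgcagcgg
POLA1: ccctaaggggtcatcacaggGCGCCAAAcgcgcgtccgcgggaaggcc
UHRF1: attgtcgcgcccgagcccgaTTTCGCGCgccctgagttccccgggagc
GMNN: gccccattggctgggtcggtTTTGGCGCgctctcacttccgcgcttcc
In MCM6 the capitals cover 4 matches, first bases -152, -148, -90 and -86, because TTTGGCGC and the reverse complement of TTTCGCGC overlap in each run. UHRF1 has a further match, first base -14, before another of its RefSeq starts (chr19:4909467-4909500), which is not shown. PCNA and GMNN have 1 match each, at -59 and -80, and their mRNAs differed in opposite directions between the labelled knockdown and ShNC + H2O2, as given below. An E2F-type match was found in 15 of the 51 member windows (29.4%), which belong to 14 members, and in 979 of all 35116 windows (2.79%). CCAAT, the element bound by NF-Y, was in 31 member windows (60.8%) and in 32.0% of all windows. The cell cycle homology region, searched as TTTGAA or TTCGAA, was in 2 member windows (3.92%) and 14.3% of all. GGAATG, the element of the TEAD partners of YAP1, was in 7 member windows (13.7%) and 11.9% of all. The 14 members with an E2F-type match and the 25 without had median log2 fold changes of -0.19 and -0.16 with H2O2, of -0.19 and -0.14 in the labelled knockdown against ShNC + H2O2, and of -0.43 and -0.24 against ShNC. For GGAATG the medians of the 7 members with it and the 32 without were -0.09 and -0.20, -0.38 and -0.12, and -0.29 and -0.31. These matches describe letters in a window and no test was run on them.

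The labelled knockdown had the lowest mean in 30 members (66.7%, against 29.5% of all tested genes), ShNC + H2O2 in 11 and ShNC in 4. ShNC had the highest mean in 30 members as well, not all of them the same genes (66.7%, against 33.2% of all tested genes). Summed over the 45 genes, the level was 4077, 3707, 4094 and 4011 CPM in the labelled knockdown, against 4556, 4585, 4293 and 4479 CPM in ShNC + H2O2 and 5144, 5127, 5119 and 4607 CPM in ShNC. The 3 groups did not overlap in this sum, and ShNC replicate 4, with the high mitochondrial share, was the lowest of its group.

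**Figure D1:**
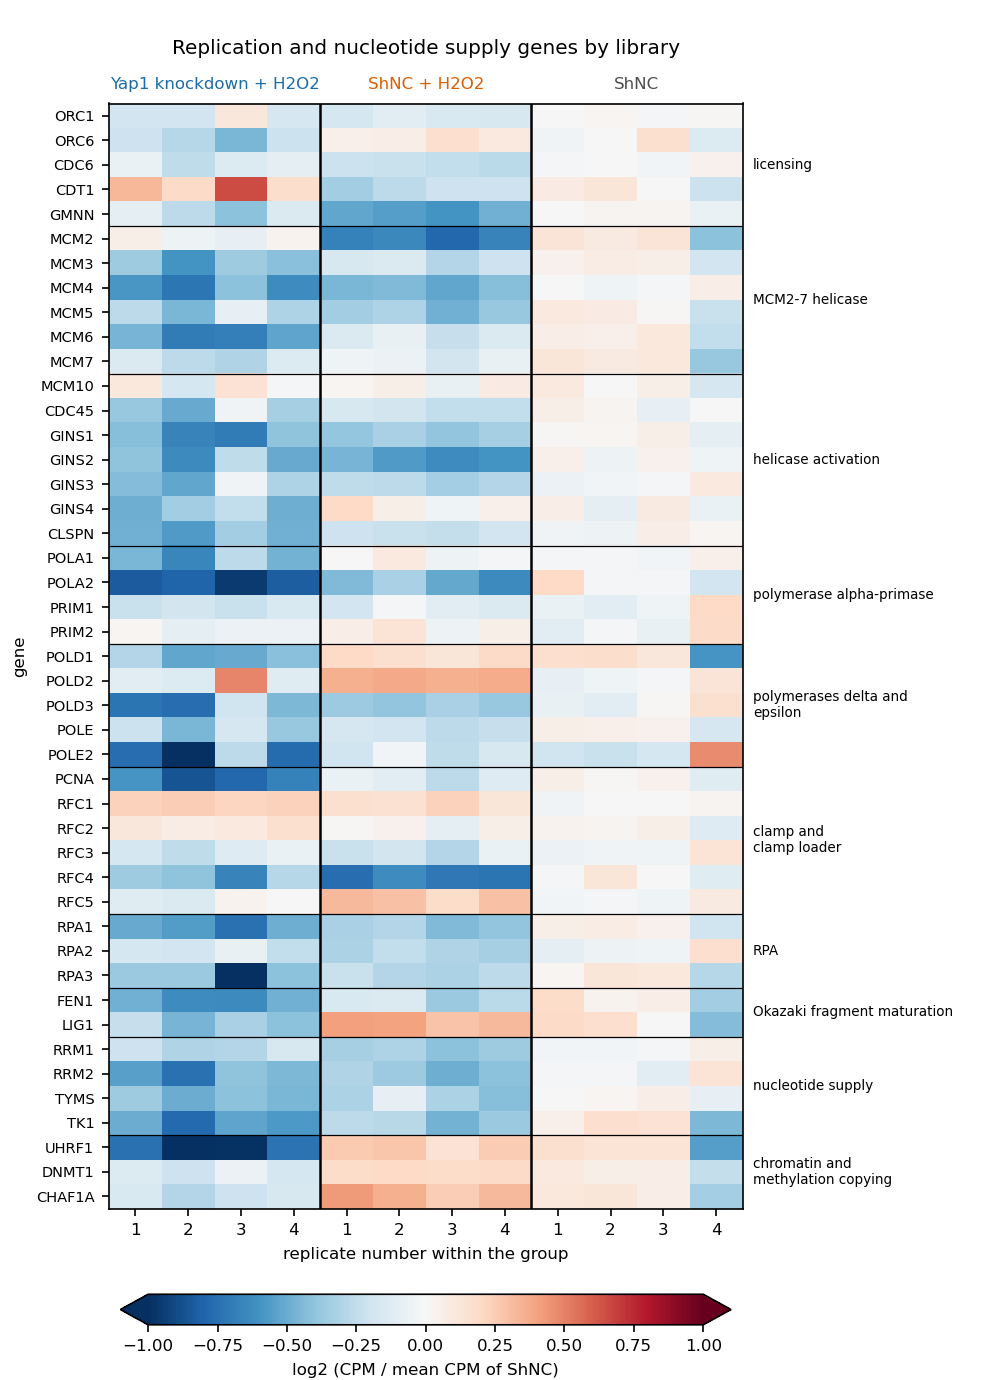
Heat map of the 45 genes (down, grouped by role) in 12 libraries (across, by group), coloured by log2 of CPM over the ShNC mean, with values beyond -1 or 1 drawn in the end colours. The labelled knockdown has the lowest mean in 30 of the 45 genes, while CDT1 is highest there and LIG1, DNMT1 and CHAF1A are highest in ShNC + H2O2.

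With H2O2 in cells carrying ShNC, 21 of the 45 genes fell and 6 rose, with a median log2 fold change of -0.21, against 0.0040 over all tested genes. Of all tested genes 22.6% were called lower and 23.9% higher in this comparison; the members' shares were 46.7% and 13.3%. In the labelled knockdown against ShNC + H2O2, 18 members were lower and 4 higher (median -0.15, against -0.0040), beside 21.0% and 22.0% of all tested genes. In the labelled knockdown against ShNC, 29 were lower and 2 higher (median -0.31, against 0.0017), beside 15.1% and 17.4%. Groups did not overlap in 26, 25 and 30 members in these comparisons, 20, 20 and 27 of them lower, where 48.0%, 45.2% and 29.7% of all tested genes did not overlap. Without the 2 libraries of high mitochondrial share the members' counts were 29 lower and 7 higher with H2O2, beside 29.6% and 29.8% of all genes tested in that fit. They were 28 and 8 between the H2O2 groups, beside 28.5% and 28.8%, and 37 and 2 in the labelled knockdown against ShNC, beside 22.8% and 24%. With library sizes alone, which moved the median of all tested genes with H2O2 to 0.09, 13 members fell and 6 rose with H2O2, beside 18.3% and 27.9% of all tested genes, and their median was -0.13.

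**Figure D2:**
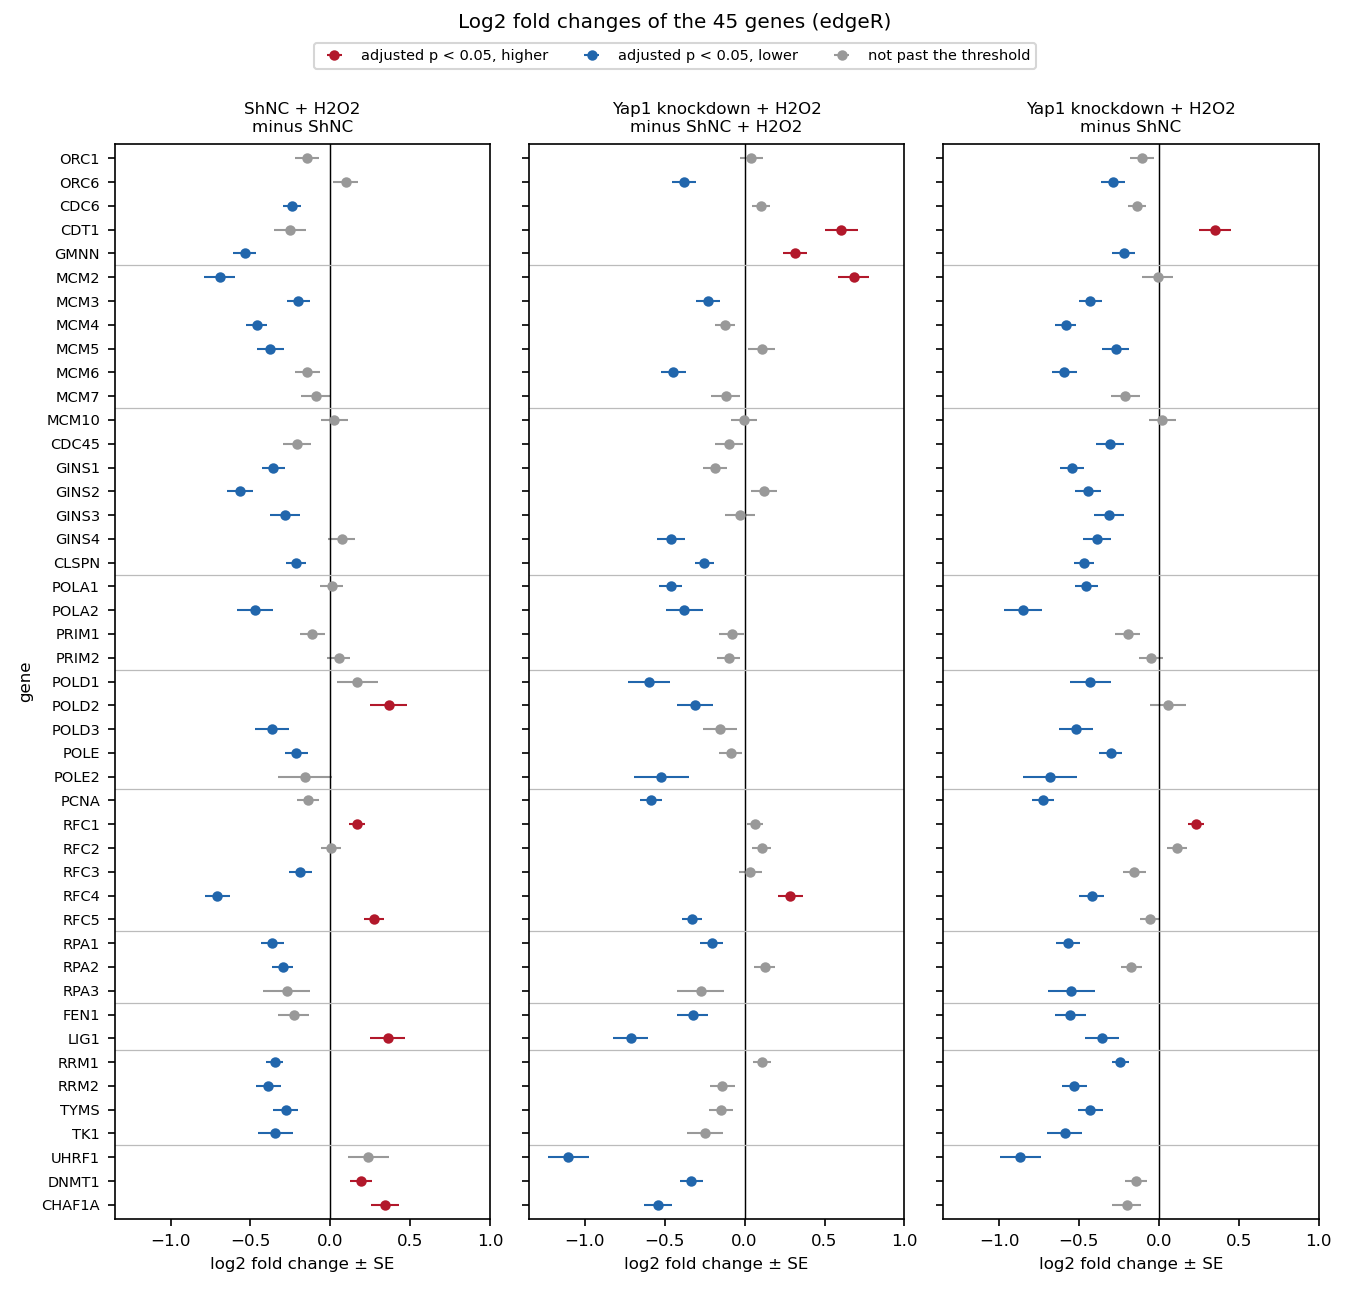
Log2 fold changes (horizontal axis, ± SE from edgeR) of the 45 genes, ordered by role, in the 3 comparisons, one panel each. Red and blue points passed an adjusted p of 0.05, higher or lower, and grey ones did not. In the panel of the labelled knockdown against ShNC 29 genes are blue and 2 red.

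Licensing factors moved apart from each other. CDT1, which brings MCM rings to the origin, and its inhibitor geminin (GMNN) were both higher in the labelled knockdown than in ShNC + H2O2, while ORC6, a subunit of the origin recognition complex, was lower. CDT1 had 78.04, 71.04, 97.9 and 70.2 CPM in the labelled knockdown, against 48.9, 51.9, 53.7 and 53.8 CPM in ShNC + H2O2 and 65.8, 67.4, 61.9 and 53.4 CPM in ShNC. Every labelled knockdown library lay above the other 8, replicate 3 highest, and ShNC + H2O2 overlapped ShNC. The log2 fold change of CDT1 was 0.61 ± 0.10 (adjusted p = 1.65e-04) against ShNC + H2O2 and 0.35 ± 0.10 (adjusted p = 0.0139) against ShNC, and its difference with H2O2 in ShNC, -0.25 ± 0.10, missed the threshold at an adjusted p of 0.0501 and passed it without ShNC replicate 4 (-0.33, adjusted p = 0.0102). Without the 2 libraries of high mitochondrial share the value against ShNC was 0.16, adjusted p = 0.00646, and in a fit of those 2 groups alone its adjusted p was 0.0507. With the neighbours' shift removed CDT1 was 0.37 against ShNC + H2O2 (adjusted p = 0.00577). GMNN had 49.5, 43.9, 39.4 and 47.5 CPM in the labelled knockdown, against 36.7, 35.9, 34.7 and 37.6 CPM in ShNC + H2O2 and 52.7, 53.5, 53.6 and 50.3 CPM in ShNC. The 3 groups did not overlap, with ShNC + H2O2 lowest and ShNC highest. GMNN fell with H2O2 to 0.69 times its ShNC level (-0.54 ± 0.07, adjusted p = 1.67e-05) and was higher in the labelled knockdown than in ShNC + H2O2 (0.32 ± 0.07, adjusted p = 0.00228). Its lower level in the labelled knockdown than in ShNC (-0.22 ± 0.07, adjusted p = 0.0277) was lost without ShNC replicate 1, 2 or 3 or labelled knockdown replicate 2 (adjusted p = 0.0597 to 0.0735) and with the neighbours' shift removed (-0.11, adjusted p = 0.257). ORC6 had 46.03, 43.5, 38.6 and 45.7 CPM in the labelled knockdown, against 54.8, 55.4, 59.5 and 56.8 CPM in ShNC + H2O2 and 51.8, 52.7, 59.3 and 48.2 CPM in ShNC. The labelled knockdown was below all 8 others, replicate 3 lowest, and the other groups overlapped. The log2 fold change of ORC6 was -0.38 ± 0.08 (adjusted p = 7.84e-04) against ShNC + H2O2 and -0.29 ± 0.08 (adjusted p = 0.00889) against ShNC. CDC6, the loading ATPase, averaged 71.1 ± 4.13 CPM in the labelled knockdown, against 66.2 ± 1.17 CPM in ShNC + H2O2 and 78.1 ± 1.69 CPM in ShNC (SD, n = 4 each). It fell with H2O2 (-0.24 ± 0.06, adjusted p = 0.00279) and was not called in the others in the fit of all 12 libraries. Against ShNC it was called with the neighbours' shift removed (-0.19, adjusted p = 0.0223). Without both libraries of high mitochondrial share it was called higher than in ShNC + H2O2 (0.10, adjusted p = 0.0343) and lower than in ShNC (-0.13, adjusted p = 0.0197). ORC1, the ATPase subunit of the origin complex, was called in none of the comparisons with all 12 libraries (-0.15 with H2O2, 0.04 in the labelled knockdown against ShNC + H2O2 and -0.11 against ShNC). Without labelled knockdown replicate 3, the highest library of its group, the value against ShNC was called (-0.18, adjusted p = 0.0152), and without both libraries of high mitochondrial share so was that with H2O2 (-0.15, adjusted p = 0.0066).

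The 6 subunits of the MCM2-7 ring, which assemble in equal numbers, did not move equally at the mRNA level. With H2O2 in ShNC, MCM2, MCM3, MCM4 and MCM5 fell and MCM6 and MCM7 were not called with all 12 libraries. In the labelled knockdown against ShNC + H2O2, MCM6 and MCM3 were lower, MCM2 was higher and the others were not called. MCM2 had 174, 161, 158 and 171 CPM in the labelled knockdown, against 105, 107, 96.9 and 105 CPM in ShNC + H2O2 and 182, 177, 182 and 126 CPM in ShNC. ShNC + H2O2 was below every other library, and ShNC replicate 4 was the lowest of the rest. MCM2 fell with H2O2 (-0.69 ± 0.10, adjusted p = 2.62e-05) and was higher in the labelled knockdown (0.68 ± 0.10, adjusted p = 3.71e-05), which left it at -0.01 ± 0.10 against ShNC (-0.11, adjusted p = 0.0247, without both libraries of high mitochondrial share). MCM2 (chr3:127598223-127622436, GRCh38) lies in a stretch of chromosome 3 whose genes shifted by -0.60 and 0.54 in the same comparisons. With that shift removed its values were -0.08 (adjusted p = 0.422) and 0.14 (0.153), no longer called, and 23.6% of its exon bases lie in another gene, which makes its level uncertain. MCM6 showed 130.4, 111, 112 and 125 CPM in the labelled knockdown, against 163, 171, 154 and 163 CPM in ShNC + H2O2 and 188, 186, 193 and 152 CPM in ShNC. The labelled knockdown was below all 8 others, whereas ShNC + H2O2 and ShNC overlapped through ShNC replicate 4. MCM6 was at 0.734 times its ShNC + H2O2 level in the labelled knockdown (-0.45 ± 0.08, adjusted p = 3.06e-04) and at 0.664 times its ShNC level (-0.59 ± 0.08, adjusted p = 3.89e-05). With the neighbours' shift removed MCM6 was -0.25, adjusted p = 0.0433, against ShNC + H2O2, and with H2O2 in ShNC it was called (-0.35, adjusted p = 0.0056), as it was without ShNC replicate 4 (-0.23, adjusted p = 0.00551). MCM4 averaged 286 ± 26.3 CPM in the labelled knockdown, against 311 ± 9.101 CPM in ShNC + H2O2 and 428 ± 14.6 CPM in ShNC (SD, n = 4 each), and it fell with H2O2 (-0.46 ± 0.06, adjusted p = 2.66e-05) with no call between the H2O2 groups (-0.12 ± 0.06, adjusted p = 0.144) unless labelled knockdown replicate 3 was left out (-0.18, adjusted p = 0.00968). MCM5 was lower with H2O2 (-0.38 ± 0.08, adjusted p = 0.00181) and in the labelled knockdown against ShNC (-0.27 ± 0.08, adjusted p = 0.0234). That second call was lost without ShNC replicate 1, 2 or 3 or labelled knockdown replicate 1, 2 or 4 (adjusted p = 0.0505 to 0.0855), and the value was -0.41, adjusted p = 9.72e-09, without the 2 libraries of high mitochondrial share. MCM3 was lower in the labelled knockdown than in ShNC (-0.43 ± 0.07, adjusted p = 3.11e-04). Its smaller differences with H2O2 (-0.20 ± 0.07, adjusted p = 0.0331) and between the H2O2 groups (-0.23 ± 0.07, adjusted p = 0.0183) were lost with the neighbours' shift removed (-0.18 and -0.18). The first was also lost without ShNC replicate 1, 2 or 3 or ShNC + H2O2 replicate 1, 3 or 4 (adjusted p = 0.054 to 0.106), and the second without ShNC + H2O2 replicate 1 or 2 or labelled knockdown replicate 2 (0.053 to 0.0701). MCM7 was not called with all 12 libraries (-0.09 with H2O2, -0.12 between the H2O2 groups and -0.21 against ShNC), and ShNC replicate 4 was its lowest library at 313 CPM, against 432 to 442 CPM in the other 3 of ShNC. Without that library MCM7 was called lower with H2O2 (-0.20, adjusted p = 0.0042) and in the labelled knockdown against ShNC (-0.32, adjusted p = 1.65e-04). Without both libraries of high mitochondrial share it was also called between the H2O2 groups (-0.09, adjusted p = 0.0295).

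**Figure D3:**
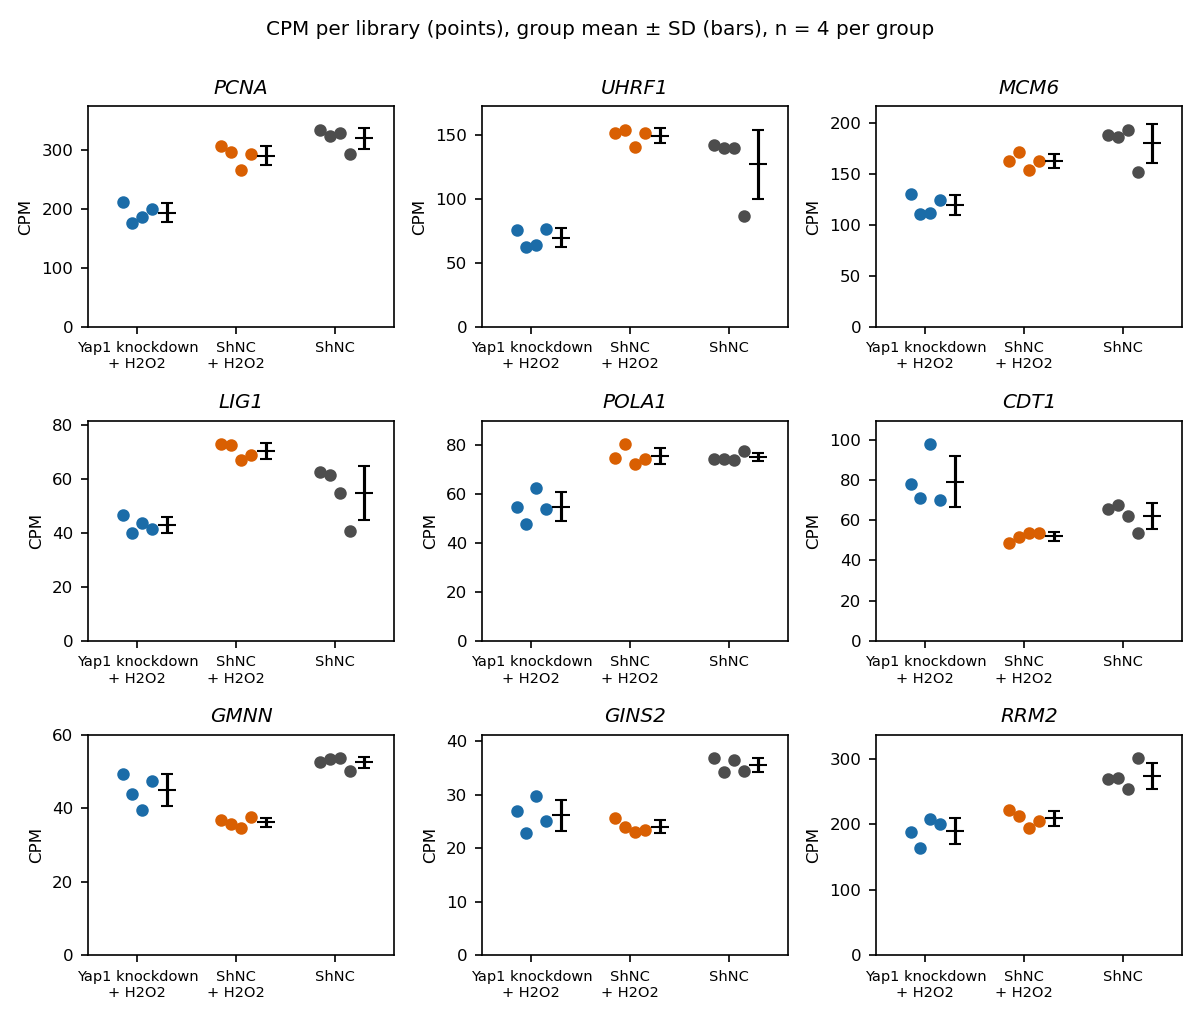
CPM (vertical axis, from 0) of 9 genes in each library (points) with the group mean ± SD (black, n = 4). PCNA, UHRF1, MCM6 and POLA1 are lowest in all 4 labelled knockdown libraries, CDT1 is highest there, LIG1 is highest in ShNC + H2O2, and GMNN, GINS2 and RRM2 are highest in ShNC.

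Among the factors that turn the loaded ring into a moving helicase, 4 of 7 fell with H2O2. In the labelled knockdown 2 were lower than in ShNC + H2O2 and 6 lower than in ShNC, and none was higher in any comparison. The lower calls were 57.1%, 28.6% and 85.7% of the 7, beside 22.6%, 21.0% and 15.1% of all tested genes. Of all tested genes 23.9%, 22.0% and 17.4% were called higher. CDC45 and 3 of the GINS subunits, which form the active helicase with MCM2-7, and claspin (CLSPN), which links the fork to checkpoint signalling, were lower in the labelled knockdown than in ShNC, as was GINS4. MCM10, which helps to start the helicase, was called in none of the comparisons (0.03 with H2O2 and 0.02 in the labelled knockdown against ShNC). GINS2 had 26.97, 22.9, 29.8 and 25.1 CPM in the labelled knockdown, against 25.7, 23.99, 22.95 and 23.5 CPM in ShNC + H2O2 and 36.8, 34.3, 36.6 and 34.5 CPM in ShNC. ShNC stood above all 8 H2O2 libraries, and the H2O2 groups overlapped. GINS2 fell with H2O2 to 0.676 times its ShNC level (-0.56 ± 0.08, adjusted p = 3.12e-05), and the value was -0.35 with the neighbours' shift removed (adjusted p = 0.0106). GINS4 gave 11.1, 12.3, 13.1 and 11.1 CPM in the labelled knockdown, against 17.9, 16.2, 15.1 and 16.1 CPM in ShNC + H2O2 and 16.3, 14.6, 16.5 and 14.9 CPM in ShNC. Here the labelled knockdown was below the other 8, and ShNC + H2O2 overlapped ShNC. GINS4 was -0.46 ± 0.09 (adjusted p = 5.16e-04) against ShNC + H2O2 and 0.07 ± 0.09 (adjusted p = 0.535) with H2O2 in ShNC, and 23.6% of its exon bases lie in another gene. GINS1 fell with H2O2 (-0.36 ± 0.07, adjusted p = 8.24e-04) and was -0.54 ± 0.07 (adjusted p = 3.89e-05) in the labelled knockdown against ShNC. Between the H2O2 groups GINS1 was -0.19 ± 0.07, called only without labelled knockdown replicate 1 or 4 among the fits that leave out 1 library (-0.23, adjusted p = 0.0345 and -0.23, adjusted p = 0.0243). GINS3 had -0.29 ± 0.09 (adjusted p = 0.0199) and -0.31 ± 0.09 (adjusted p = 0.0173) in these comparisons. The first was lost without ShNC + H2O2 replicate 3 (adjusted p = 0.0545) and the second without labelled knockdown replicate 1 or 2 (0.0617 and 0.0639). CLSPN fell with H2O2 (-0.22 ± 0.06, adjusted p = 0.00812) and was lower again in the labelled knockdown (-0.25 ± 0.06, adjusted p = 0.00329). CDC45 was called in the labelled knockdown against ShNC (-0.30 ± 0.09, adjusted p = 0.0152), a call lost without labelled knockdown replicate 1 or 2 (adjusted p = 0.0507 and 0.0577). Between the H2O2 groups it was -0.10 ± 0.09, and was called without labelled knockdown replicate 3 (-0.19, adjusted p = 0.0277) or with the neighbours' shift removed (-0.26, adjusted p = 0.0382).

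In polymerase alpha-primase, the enzyme that starts every new strand, the polymerase subunits were lower in the labelled knockdown and the primase subunits were not called with all 12 libraries unless the neighbours' shift was removed. POLA2 had 3.67, 3.73, 3.35 and 3.68 CPM in the labelled knockdown, against 4.800, 5.19, 4.57 and 4.19 CPM in ShNC + H2O2 and 7.46, 6.42, 6.46 and 5.71 CPM in ShNC. The groups did not overlap. POLA2, the regulatory subunit, fell with H2O2 (-0.47 ± 0.11, adjusted p = 0.00308) and was at 0.555 times its ShNC level in the labelled knockdown (-0.85 ± 0.12, adjusted p = 4.53e-05). Its difference between the H2O2 groups (-0.38 ± 0.12, adjusted p = 0.0169) was lost without ShNC + H2O2 replicate 2 (adjusted p = 0.06) and with the neighbours' shift removed (-0.29, adjusted p = 0.053), its level was under 8 CPM, and 35.1% of its exon bases lie in another gene. POLA1, the catalytic subunit (chrX:24693919-24996986), averaged 54.9 ± 5.998 CPM in the labelled knockdown, against 75.6 ± 3.42 CPM in ShNC + H2O2 and 75.2 ± 1.73 CPM in ShNC (SD, n = 4 each). It was -0.46 ± 0.07 (adjusted p = 1.03e-04) in the labelled knockdown against ShNC + H2O2, with no overlap. With H2O2 it was 0.01 ± 0.07, and 0.25, adjusted p = 0.031, thus called higher, with the neighbours' shift of -0.24 removed. PRIM2 had 42.9, 39.7, 40.6 and 40.7 CPM in the labelled knockdown, against 44.3, 46.5, 40.96 and 44.04 CPM in ShNC + H2O2 and 39.3, 41.7, 40.2 and 48.3 CPM in ShNC. All groups overlapped for PRIM2, the large primase subunit (0.05 with H2O2, -0.10 between the H2O2 groups), and without both libraries of high mitochondrial share the H2O2 value was called (0.11, adjusted p = 0.0416). PRIM1, the catalytic primase subunit, was at -0.11 ± 0.08 and -0.08 ± 0.08 in these comparisons, and against ShNC at -0.19 ± 0.08, called with the neighbours' shift removed (-0.24, adjusted p = 0.0338). Another gene covers 21.6% of its exon bases.

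For the strand-extending polymerases, 3 of 5 members were lower in the labelled knockdown than in ShNC + H2O2 and none was higher. Of all tested genes 21.0% were called lower and 22.0% higher there. Among the 3 calls only that of POLD1 held in every alternative, and those of POLD2 and POLE2 were lost in several, as given below. POLD1, the catalytic subunit of polymerase delta, lies on chromosome 19 (chr19:50384204-50418016). POLD1 had 56.95, 48.8, 49.2 and 52.3 CPM in the labelled knockdown, against 80.01, 78.03, 75.99 and 79.7 CPM in ShNC + H2O2 and 78.6, 78.8, 75.3 and 46.5 CPM in ShNC. The labelled knockdown was below all ShNC + H2O2 libraries, and ShNC replicate 4 was lower still, apart from the other 3 of its group. POLD1 was -0.60 ± 0.13 (adjusted p = 0.00157) against ShNC + H2O2. Its neighbours shifted by -0.32, and -0.27 remained (adjusted p = 0.036). Against ShNC its value of -0.43 ± 0.13 (adjusted p = 0.0189) was lost without ShNC replicate 1, 2 or 3 or labelled knockdown replicate 2 (adjusted p = 0.0536 to 0.0607). POLD2 had 138, 136, 208 and 137 CPM in the labelled knockdown, against 189.9, 193, 190.2 and 192 CPM in ShNC + H2O2 and 140.5, 144, 147 and 163 CPM in ShNC. Labelled knockdown replicate 3 was the highest of all 12, above ShNC + H2O2, while its other 3 were the lowest of all. POLD2, an accessory subunit, rose with H2O2 (0.36 ± 0.11, adjusted p = 0.0159, and 0.22, adjusted p = 0.186, with the neighbours' shift removed). Its difference of -0.31 ± 0.11 (adjusted p = 0.0398) in the labelled knockdown against ShNC + H2O2 was lost without any 1 of the 4 ShNC + H2O2 libraries or labelled knockdown replicate 1, 2 or 4 (adjusted p = 0.0684 to 0.119). Without the 2 libraries of high mitochondrial share it was -0.49 (adjusted p = 1.61e-14), and the value against ShNC turned to -0.08 (0.0497), against 0.06 ± 0.11 with them. POLD3 had 27.4, 26.7, 39.5 and 33.2 CPM in the labelled knockdown, against 35.3, 34.6, 36.2 and 34.97 CPM in ShNC + H2O2 and 43.2, 41.98, 45.7 and 50.8 CPM in ShNC. POLD3, another accessory subunit, was below ShNC in every H2O2 library, and the H2O2 groups overlapped through labelled knockdown replicate 3. It fell with H2O2 (-0.37 ± 0.11, adjusted p = 0.0102) and was not called between the H2O2 groups (-0.15 ± 0.11, adjusted p = 0.273). Without labelled knockdown replicate 3 it was called lower there (-0.27, adjusted p = 0.0167). POLE, the catalytic subunit of polymerase epsilon, was -0.30 ± 0.07 (adjusted p = 0.0048) in the labelled knockdown against ShNC. With H2O2 it was -0.21 ± 0.07 (adjusted p = 0.0246), lost without ShNC replicate 1, 2 or 3 or ShNC + H2O2 replicate 3 or 4 (adjusted p = 0.0559 to 0.0715). POLE2, its second subunit, was -0.52 ± 0.17 (adjusted p = 0.0225) between the H2O2 groups, lost without ShNC + H2O2 replicate 2 or labelled knockdown replicate 1, 2 or 4 (adjusted p = 0.0562 to 0.0718) and with the neighbours' shift removed (-0.16, adjusted p = 0.53). Against ShNC it was -0.68 ± 0.17 (adjusted p = 0.00654), and -0.48 (adjusted p = 0.057) with that shift removed.

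PCNA, the sliding clamp, had the lowest adjusted p of the 45 genes in the labelled knockdown against both other groups. PCNA had 213, 176, 186 and 201 CPM in the labelled knockdown, against 307, 297, 267 and 294 CPM in ShNC + H2O2 and 335, 324, 329.8 and 294 CPM in ShNC. The labelled knockdown lay below all 8 others, and ShNC + H2O2 overlapped ShNC. PCNA (chr20:5114953-5126626) was at 0.666 times its ShNC + H2O2 level in the labelled knockdown (-0.59 ± 0.07, adjusted p = 6.65e-06) and at 0.605 times its ShNC level (-0.72 ± 0.07, adjusted p = 1.41e-06), whereas with H2O2 in ShNC it was not called (-0.14 ± 0.07, adjusted p = 0.117) unless ShNC replicate 4 was left out (-0.18, adjusted p = 0.024). Its neighbours shifted by 0.04 and 0.02, and leaving out the 2 libraries of high mitochondrial share gave -0.57 and -0.75. The subunits of replication factor C, which opens the clamp around DNA, went different ways. RFC4 had 79.1, 76.8, 63.8 and 82.9 CPM in the labelled knockdown, against 59.8, 65.5, 61.8 and 61.2 CPM in ShNC + H2O2 and 101, 110.2, 101 and 92.9 CPM in ShNC. ShNC was above all H2O2 libraries, and labelled knockdown replicate 3 fell within ShNC + H2O2. RFC4 fell with H2O2 (-0.71 ± 0.08, adjusted p = 2.54e-06) and was higher in the labelled knockdown than in ShNC + H2O2 (0.29 ± 0.08, adjusted p = 0.00856). RFC4 lies on chromosome 3 (chr3:186789880-186807058), where neighbours shifted by -0.57 and 0.60. With that removed the first value was -0.14 (adjusted p = 0.203) and the second turned to -0.31 (0.00821). RFC5 had 58.98, 58.1, 65.9 and 64.2 CPM in the labelled knockdown, against 80.4, 78.8, 72.8 and 78.6 CPM in ShNC + H2O2 and 62.9, 63.2, 62.3 and 68.3 CPM in ShNC. ShNC + H2O2 stood above both other groups, which overlapped. RFC5 rose with H2O2 (0.27 ± 0.06, adjusted p = 0.00202) and was lower in the labelled knockdown (-0.33 ± 0.06, adjusted p = 5.52e-04), both also with the neighbours' shift removed (0.22 and -0.43). Against ShNC it was -0.05 ± 0.06, and -0.21, adjusted p = 0.039, with that shift removed. RFC1, the large subunit, rose with H2O2 (0.17 ± 0.05, adjusted p = 0.012) and was also above ShNC in the labelled knockdown (0.23 ± 0.05, adjusted p = 0.00214). RFC3 was lower with H2O2 (-0.19 ± 0.07, adjusted p = 0.0441), a call lost without any 1 of the 4 ShNC libraries or ShNC + H2O2 replicate 1, 2 or 3 (adjusted p = 0.0523 to 0.133). It was also lost with the neighbours' shift removed (-0.17, adjusted p = 0.0534). RFC2 was not called with all 12 libraries (0.01, 0.11 and 0.11).

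Replication protein A, the trimer that coats single-stranded DNA, was lower with H2O2 in its large and middle subunits. RPA1 had 152, 146, 128 and 153 CPM in the labelled knockdown, against 172, 176, 158 and 164 CPM in ShNC + H2O2 and 225, 227, 222 and 188 CPM in ShNC. The 3 groups did not overlap. RPA1 fell with H2O2 to 0.778 times its ShNC level (-0.36 ± 0.07, adjusted p = 8.66e-04) and was at 0.674 times its ShNC level in the labelled knockdown (-0.57 ± 0.07, adjusted p = 2.96e-05). Between the H2O2 groups it was -0.21 ± 0.07 (adjusted p = 0.0353), lost without ShNC + H2O2 replicate 1, 2 or 4 or labelled knockdown replicate 2 or 3 (adjusted p = 0.0571 to 0.0985). RPA2 had 75.6, 74.7, 80.8 and 71.8 CPM in the labelled knockdown, against 68.6, 71.9, 69.2 and 67.9 CPM in ShNC + H2O2 and 80.3, 82.3, 82.6 and 95.9 CPM in ShNC. RPA2 was highest in ShNC, overlapping the labelled knockdown by 1 library, and the H2O2 groups overlapped slightly. It fell with H2O2 (-0.30 ± 0.07, adjusted p = 0.00162) and was 0.13 ± 0.07 (adjusted p = 0.142) between the H2O2 groups. With the neighbours' shift removed the H2O2 value was -0.17, adjusted p = 0.0442. Against ShNC it was -0.17 ± 0.07, called without labelled knockdown replicate 3 (-0.20, adjusted p = 0.0213) or with that shift removed (-0.20, adjusted p = 0.0274). RPA3 had 36.3, 36.2, 20.4 and 35.3 CPM in the labelled knockdown, against 40.1, 38.4, 37.7 and 39.04 CPM in ShNC + H2O2 and 47.4, 51.1, 50.5 and 38.6 CPM in ShNC. Labelled knockdown replicate 3, with the high mitochondrial share, was far below the other 3 of its group, all of which were still below the other 8 libraries. RPA3 was called in the labelled knockdown against ShNC (-0.55 ± 0.15, adjusted p = 0.0106, and -0.48 when both high-mitochondrial libraries are left out). With H2O2 it was -0.27 ± 0.15, called with the neighbours' shift removed (-0.36, adjusted p = 0.0481) or without both those libraries (-0.36, adjusted p = 1.88e-08).

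Both enzymes that finish Okazaki fragments were lower in the labelled knockdown than in ShNC + H2O2. LIG1 had 46.8, 39.9, 43.8 and 41.3 CPM in the labelled knockdown, against 73.00, 72.8, 66.99 and 68.9 CPM in ShNC + H2O2 and 62.6, 61.7, 54.7 and 40.7 CPM in ShNC. ShNC + H2O2 was above every other library, and ShNC replicate 4 fell within the labelled knockdown. LIG1, the replicative DNA ligase, was at 0.61 times its ShNC + H2O2 level in the labelled knockdown (-0.71 ± 0.11, adjusted p = 7.09e-05), and -0.47 with the neighbours' shift removed (adjusted p = 2.39e-04). It rose with H2O2 in ShNC (0.36 ± 0.11, adjusted p = 0.0125). Its neighbours on chromosome 19 shifted by 0.33, leaving 0.04 (adjusted p = 0.698), and the rise was 0.23 in the fit that leaves out the 2 libraries of high mitochondrial share. Against ShNC its value of -0.36 ± 0.11 (adjusted p = 0.0199) was lost without ShNC replicate 1 or 2 or labelled knockdown replicate 2 or 4 (adjusted p = 0.0538 to 0.0738). FEN1 had 39.1, 35.3, 35.2 and 39.2 CPM in the labelled knockdown, against 49.3, 49.4, 42.3 and 45.4 CPM in ShNC + H2O2 and 62.2, 56.02, 57.4 and 43.01 CPM in ShNC. The labelled knockdown was below all others, and ShNC replicate 4 brought ShNC within the range of ShNC + H2O2. FEN1, the flap endonuclease, was -0.32 ± 0.10 (adjusted p = 0.0144) against ShNC + H2O2 and -0.55 ± 0.10 (adjusted p = 4.76e-04) against ShNC, with -0.23 ± 0.10 (adjusted p = 0.0678) for H2O2 in ShNC. Without ShNC replicate 4 that last value was called (-0.33, adjusted p = 7.56e-04).

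Each of the 4 genes of deoxynucleotide supply fell with H2O2 in ShNC, and with all 12 libraries none was called between the labelled knockdown and ShNC + H2O2. In the fit that leaves out the 2 libraries of high mitochondrial share TK1 (-0.27, adjusted p = 0.00185), RRM2 (-0.19, adjusted p = 0.028) and TYMS (-0.16, adjusted p = 0.0311) were called lower there. RRM1 was called higher there in the same fit (0.13, adjusted p = 0.00412). RRM2, the S phase subunit of ribonucleotide reductase, fell to 0.764 times its ShNC level, RRM1, its large subunit, to 0.785, the salvage enzyme TK1 to 0.788 and TYMS, which makes thymidylate, to 0.824. RRM2 had 188, 163, 208 and 200.3 CPM in the labelled knockdown, against 223, 213, 195 and 206 CPM in ShNC + H2O2 and 269.6, 271, 254 and 301 CPM in ShNC. ShNC was above all 8 H2O2 libraries, and the H2O2 groups overlapped. RRM2 was -0.39 ± 0.08 (adjusted p = 6.61e-04) with H2O2, -0.14 ± 0.08 (adjusted p = 0.162) between the H2O2 groups and -0.53 ± 0.08 (adjusted p = 8.67e-05) in the labelled knockdown against ShNC. Another gene covers 20.2% of RRM2's exon bases. RRM1 had 129, 121, 122 and 133 CPM in the labelled knockdown, against 119, 120.4, 112 and 117 CPM in ShNC + H2O2 and 146, 146, 148 and 155 CPM in ShNC. The groups did not overlap, with ShNC + H2O2 lowest by a narrow margin. RRM1 was -0.35 ± 0.05 (adjusted p = 7.82e-05) with H2O2 and 0.11 ± 0.05 (adjusted p = 0.127) between the H2O2 groups, called with the neighbours' shift removed (0.17, adjusted p = 0.0279). TK1 had 85.1, 70.2, 83.5 and 80.7 CPM in the labelled knockdown, against 100.1, 99.1, 86.8 and 92.9 CPM in ShNC + H2O2 and 125, 135, 133 and 88.2 CPM in ShNC. The labelled knockdown was below all others, and ShNC + H2O2 overlapped ShNC through ShNC replicate 4. TK1 was -0.34 ± 0.11 (adjusted p = 0.0195) with H2O2, lost without ShNC replicate 2 or 3 or ShNC + H2O2 replicate 3 (adjusted p = 0.059 to 0.0645), and -0.59 ± 0.11 (adjusted p = 8.62e-04) in the labelled knockdown against ShNC. TYMS averaged 28.2 ± 1.25 CPM in the labelled knockdown, against 31.2 ± 3.18 CPM in ShNC + H2O2 and 37.9 ± 1.63 CPM in ShNC (SD, n = 4 each). It was -0.28 ± 0.08 (adjusted p = 0.00713) with H2O2 and -0.43 ± 0.08 (adjusted p = 5.21e-04) in the labelled knockdown against ShNC, which was -0.26 with the neighbours' shift removed, and 46.6% of its exon bases lie in ENOSF1, so reads of both genes could be mixed.

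The genes that copy methylation and chromatin behind the fork showed the largest single difference of the set. UHRF1 had 75.5, 62.3, 64.02 and 75.98 CPM in the labelled knockdown, against 152, 154, 140.4 and 151 CPM in ShNC + H2O2 and 142, 139.6, 139 and 86.4 CPM in ShNC. The labelled knockdown was below all 8 others, and ShNC replicate 4 stood apart from its group. UHRF1, which recognises hemimethylated DNA, was at 0.465 times its ShNC + H2O2 level in the labelled knockdown (-1.103 ± 0.13, adjusted p = 8.01e-06) and at 0.548 times its ShNC level (-0.87 ± 0.13, adjusted p = 1.33e-04). UHRF1 lies on chromosome 19 (chr19:4903080-4962154), where neighbours shifted by -0.30, and -0.80 remained (adjusted p = 4.48e-06). DNMT1 had 238, 227, 252 and 231 CPM in the labelled knockdown, against 297, 301, 298 and 299 CPM in ShNC + H2O2 and 279.5, 272, 274 and 222 CPM in ShNC. ShNC + H2O2 was above every other library, and the other groups overlapped. DNMT1, the maintenance methyltransferase that UHRF1 recruits, was -0.33 ± 0.07 (adjusted p = 0.00115) in the labelled knockdown against ShNC + H2O2 and 0.19 ± 0.07 (adjusted p = 0.0357) with H2O2. With the shift of its neighbours removed these were -0.05 (adjusted p = 0.493) and -0.15 (0.0377), the first no longer called and the second in the opposite direction. The H2O2 value was also lost without ShNC replicate 4 or any 1 of the ShNC + H2O2 libraries (adjusted p = 0.0566 to 0.0722). Against ShNC DNMT1 was -0.14 ± 0.07, called without ShNC replicate 4 (-0.22, adjusted p = 0.00118) or with that shift removed (-0.21, adjusted p = 0.0101). CHAF1A, the large subunit of CAF-1, averaged 58.8 ± 2.55 CPM in the labelled knockdown, against 85.7 ± 4.46 CPM in ShNC + H2O2 and 67.7 ± 9.61 CPM in ShNC (SD, n = 4 each). It rose with H2O2 (0.34 ± 0.09, adjusted p = 0.00514, but -0.05, adjusted p = 0.528, with the neighbours' shift removed) and was lower in the labelled knockdown than in ShNC + H2O2 (-0.54 ± 0.09, adjusted p = 1.48e-04, and -0.32 with that shift removed). Against ShNC it was -0.20 ± 0.09, called without ShNC replicate 4 (-0.31, adjusted p = 3.66e-04) or with the shift removed (-0.37, adjusted p = 1.62e-04).

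Levels of subunits that work in 1 complex differed widely per length. On the scale of CPM per kb of exon, PCNA was the most abundant of the 45, with 132, 198 and 218 in the labelled knockdown, ShNC + H2O2 and ShNC. Within the MCM ring MCM7 was highest (80.04, 86.9 and 92.5 in the same order) and MCM5 lowest (15.2, 14.1 and 18.3). In the GINS complex GINS1 was highest (14.8, 16.8 and 21.6) and GINS4 lowest (2.17, 2.98 and 2.84). RPA2 (37.5, 34.4 and 42.2) and RPA1 (26.4, 30.5 and 39.2) exceeded RPA3 (9.92, 12.01 and 14.5). Exon length here is the union of all annotated exons, which understates the level of genes with long, rarely used exons.

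**Figure D4:**
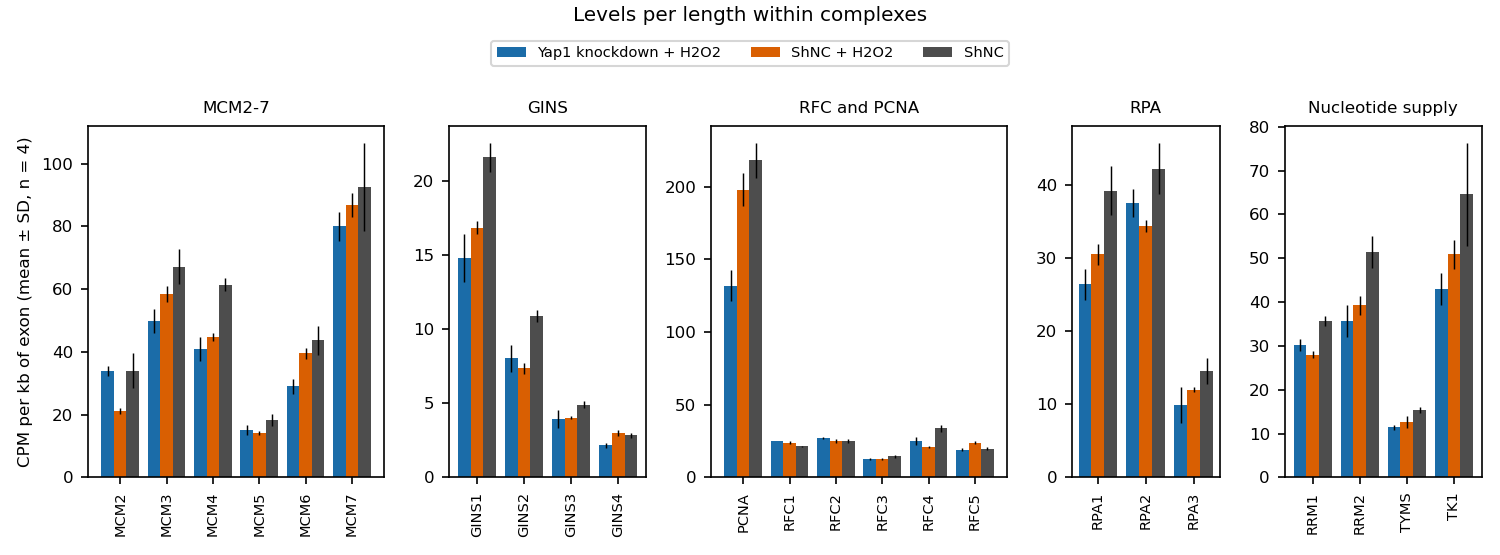
Mean CPM per kb of exon (vertical axis, linear from 0, own scale per panel, error bars SD, n = 4) for subunits of 4 assemblies and the nucleotide supply genes. Bars run labelled knockdown, ShNC + H2O2, ShNC, and PCNA is the highest of all at 132, 198 and 218.

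Part of the differences ran with chromosome position. The neighbours' shift was over 0.2 in size for 10 members with H2O2 and for 10 between the H2O2 groups, reaching 0.60 in both, and for 0 in the labelled knockdown against ShNC, where the largest was 0.18. The 5 members on chromosome 19 (POLD1, LIG1, UHRF1, DNMT1 and CHAF1A) had neighbours shifted by 0.33 to 0.41 with H2O2 and by -0.32 to -0.22 between the H2O2 groups. With the shift removed, 4 of the 6 rises and 4 of the 21 falls with H2O2 were no longer called in their direction, as were 2 of 4 and 5 of 18 between the H2O2 groups and 0 of 2 and 2 of 29 in the labelled knockdown against ShNC. The cause of the shift was not tested. Calls that held in every one of the alternatives were 11 falls and 1 rise (RFC5) with H2O2. They were 12 falls, among them PCNA, MCM6, POLA1, LIG1 and UHRF1, and 2 rises (CDT1 and GMNN) between the H2O2 groups, and 21 falls and 1 rise (RFC1) in the labelled knockdown against ShNC. The share of all tested genes that kept a call in every alternative was not counted. These counts thus do not show whether the members held better than other genes.

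**Figure D5:**
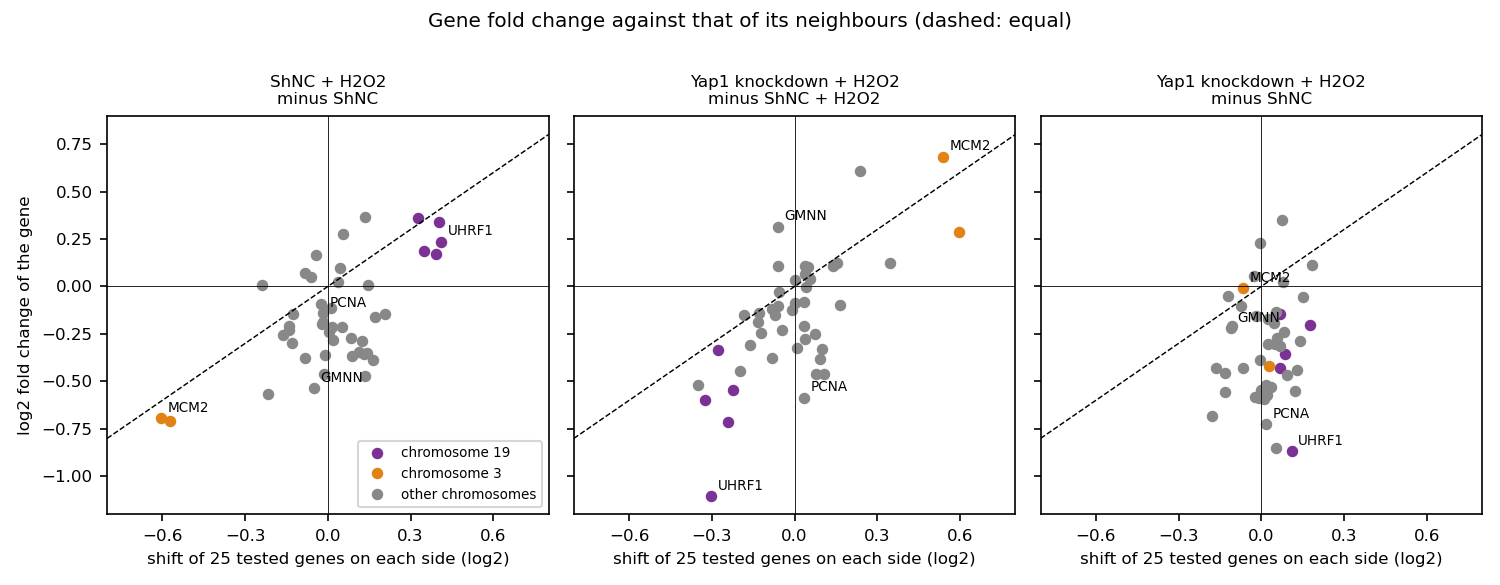
Log2 fold change of each of the 45 genes (vertical axis) against the median shift of the 25 tested genes on each side (horizontal axis), one panel per comparison, with the dashed line at equality. Chromosome 3 and 19 genes lie far from 0 on the horizontal axis in the first 2 panels, up to 0.60, while all genes are within 0.18 in the third. Some genes of other chromosomes also lie far from 0, such as POLE2 (-0.35) and GINS2 (0.35) in the second panel.

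A list of 36 other replication genes was counted beside the members. With H2O2 in ShNC 8 fell and 11 rose (22.2% and 30.6%, beside the 22.6% and 23.9% of all tested genes; median -0.05). Between the labelled knockdown and ShNC + H2O2 14 were lower and 3 higher (38.9% and 8.33%, beside 21.0% and 22.0%; median -0.21), and in the labelled knockdown against ShNC 15 were lower and 1 higher (41.7% and 2.78%, beside 15.1% and 17.4%; median -0.20). ASF1B, the histone chaperone of proliferating cells, averaged 38.3 ± 4.84 CPM in the labelled knockdown, against 67.6 ± 5.66 CPM in ShNC + H2O2 and 68.3 ± 3.55 CPM in ShNC (SD, n = 4 each). It was -0.82 ± 0.09 (adjusted p = 2.64e-06) in the labelled knockdown against ShNC + H2O2. ASF1B lies on chromosome 19, where the neighbours of the 5 members shifted by -0.32 to -0.22 in that comparison. Its paralog ASF1A averaged 22.6 ± 2.22 CPM in the labelled knockdown, against 36.8 ± 2.33 CPM in ShNC + H2O2 and 25.8 ± 0.746 CPM in ShNC. It rose with H2O2 (0.51 ± 0.08, adjusted p = 6.10e-05) and was lower in the labelled knockdown (-0.70 ± 0.08, adjusted p = 3.35e-06). TOP1, the topoisomerase that relaxes DNA ahead of the fork, rose with H2O2 (0.58 ± 0.06, adjusted p = 6.13e-07) and was not called between the H2O2 groups (-0.01). TIPIN, a fork-protection factor whose exon bases lie to 21.0% within another gene, fell with H2O2 (-0.58 ± 0.08, adjusted p = 3.38e-05) and was higher in the labelled knockdown (0.40 ± 0.08, adjusted p = 0.00115). TOPBP1, an activator of the helicase and of ATR, and SLBP, the histone mRNA-binding protein, fell with H2O2 (-0.58 ± 0.07 and -0.56 ± 0.05), where their neighbours shifted by -0.60 and -0.39. Both were called higher in the labelled knockdown than in ShNC + H2O2 (0.39, adjusted p = 2.49e-04, for TOPBP1 and 0.41 for SLBP). With its neighbours' shift of 0.63 removed, TOPBP1 turned to -0.23 there (adjusted p = 0.00569).

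Of 34 other genes of nucleotide synthesis, 13 fell and 6 rose with H2O2 (38.2% and 17.6%, median -0.19), 10 were lower and 10 higher in the labelled knockdown than in ShNC + H2O2 (29.4% each, median 0.02), and 12 were lower and 4 higher than in ShNC (35.3% and 11.8%, median -0.16), to be read beside the shares of all tested genes just given. PRPS1, which makes the ribose donor of all nucleotides, averaged 318 ± 29.02 CPM in the labelled knockdown, against 191 ± 11.1 CPM in ShNC + H2O2 and 518 ± 46.9 CPM in ShNC (SD, n = 4 each). It fell with H2O2 (-1.44 ± 0.08, adjusted p = 9.76e-10) and was higher in the labelled knockdown than in ShNC + H2O2 (0.74 ± 0.08, adjusted p = 2.43e-06). NME1, a nucleoside diphosphate kinase whose reads may be shared with its paralog NME2, fell with H2O2 as well (-1.05 ± 0.14, adjusted p = 2.11e-05). NME1 was also called higher in the labelled knockdown than in ShNC + H2O2 (0.76). Moving the other way, TK2, the mitochondrial thymidine kinase, averaged 26.6 ± 3.04 CPM in the labelled knockdown, against 68.5 ± 3.95 CPM in ShNC + H2O2 and 16.9 ± 1.83 CPM in ShNC. TK2 rose with H2O2 (2.02 ± 0.09, adjusted p = 1.58e-10) and was lower in the labelled knockdown (-1.37 ± 0.09, adjusted p = 1.89e-08), with 25% of its exon bases covered by another gene. SAMHD1, which breaks down deoxynucleotides, averaged 35.7 ± 1.89 CPM in the labelled knockdown, against 70.5 ± 4.92 CPM in ShNC + H2O2 and 41.7 ± 1.93 CPM in ShNC, rose with H2O2 (0.76 ± 0.07, adjusted p = 2.30e-07) and was lower in the labelled knockdown (-0.98 ± 0.07, adjusted p = 2.03e-08). GMPS, which makes GMP, lies on chromosome 3 and was 0.87 ± 0.08 (adjusted p = 2.38e-07) between the H2O2 groups, beside a neighbours' shift of 0.52.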

How the data were processed

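Polyadenylated RNA of 12 HK-2 libraries was sequenced in pairs, per the labels' protocols. The authors deposited 1 table of raw counts per library, 40649 genes by Ensembl identifier, of which 0 named no gene. HISAT2, featureCounts, Subread and DESeq2 with GRCh38 (hg38) are named per the submitters' processing notes. The sources used here give neither their versions nor the annotation or strand setting. Without a strand setting, genes with over 20% of exon bases in another gene are called uncertain. Positions and exon lengths are those of GENCODE 29.

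From the deposited counts, edgeR 4.0.16 (R 4.3.3) was run with filterByExpr by group, TMM scaling and a robust quasi-likelihood fit of 1 mean per group to all 12 libraries (9 residual degrees of freedom, common dispersion 0.0163). The 3 contrasts were adjusted by Benjamini-Hochberg over 19268 genes. A floor of 3 counts is 0.0644 to 0.0974 CPM by raw library totals, before TMM scaling, and covers counting error only. Alternatives were other scalings, no filter, the groups of each contrast alone, the replicate number as a block, leaving out each library or both libraries of high mitochondrial share, removal of the neighbours' shift (25 genes on each side), and DESeq2 1.42.0. The script was tested on simulated data.

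The members, the lists and the alternatives were chosen with earlier results of these data known. Within each role the member with the largest called change in the first 2 contrasts and the pair that differed most are given library by library. PCNA and GMNN were added to these after their values were seen. From each other list up to 2 called rises and 2 called falls in each of the first 2 contrasts are named, at a mean of at least 5 CPM.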

Additional observations from a re-analysis of the deposited data

Results flagged for a closer look

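In 17 of 138 groups of 4 libraries, for the 45 genes and YAP1, 1 library stood apart by Dixon's test. Its gap to the nearest library, divided by the range of the 4, exceeded the 95% critical value. The same count over all tested genes was not made. Chance gives about 1 in 20 groups. Of the 17, 14 were in ShNC replicate 4 and 3 in labelled knockdown replicate 3, the libraries of high mitochondrial share (13.9% and 11.3%).

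ShNC replicate 4 was below the rest of its group for the helicase subunits MCM2 (125.7 CPM), MCM3 (214.5 CPM), MCM6 (152 CPM) and MCM7 (312.9 CPM). It was also below them for POLD1 (46.46 CPM), POLE (188.3 CPM), RPA1 (187.7 CPM), UHRF1 (86.36 CPM), DNMT1 (221.9 CPM) and CHAF1A (53.4 CPM). In the same library POLE2 (37.76 CPM), RFC3 (45.37 CPM), RFC5 (68.31 CPM) and RPA2 (95.89 CPM) were above the rest of the group. Labelled knockdown replicate 3 was above its group for ORC1 (37.37 CPM) and POLD2 (208.1 CPM) and below it for RPA3 (20.39 CPM). The part of the mitochondrial share in these values was not tested.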

How the results depend on the processing

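Of 2160 values of single genes under the alternatives, 1970 kept direction and side of the threshold, 112 lost a call, 74 gained one and 4 reversed. Among the 1970 are 56 values called in neither fit that changed sign, since such a gene has no direction. With library sizes alone the members lower with H2O2 numbered 13, and the medians were -0.13 with H2O2 and -0.21 in the labelled knockdown against ShNC + H2O2, beside all-gene medians of 0.09 and -0.07. With only the 2 groups of the contrast 1 member was higher in the labelled knockdown than in ShNC. Without the 2 libraries of high mitochondrial share, 8 members were higher and 28 lower in the labelled knockdown than in ShNC + H2O2, the median against ShNC was -0.41, and 11603, 11194 and 9146 genes were called in all, against 8971, 8288 and 6265. In that fit POLD2 turned to -0.083 against ShNC (adjusted p = 0.0497). With the neighbours' shift removed 3 members were higher with H2O2, DNMT1 (-0.15) and CHAF1A (-0.049) reversed with H2O2, and RFC4 (-0.31) reversed in the labelled knockdown against ShNC + H2O2. The cause was not tested.

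Leaving out 1 library at a time gave 16 to 25 members lower and 5 to 6 higher with H2O2 (median -0.23 to -0.18), 13 to 20 lower and 4 higher in the labelled knockdown against ShNC + H2O2 (median -0.17 to -0.10), and 23 to 32 lower and 2 higher against ShNC (median -0.36 to -0.28). Libraries with the same replicate number in different groups did not deviate together (r from -0.222 to 0.103 over 12 pairs). Among 36 pairs with different numbers r ran from -0.218 to 0.389, highest for ShNC replicate 4 and labelled knockdown replicate 3. These values showed no pairing by number but cannot exclude it, since the deviations of those 2 libraries could hide it. The replicate block gave 26, 22 and 31 called members, against 27, 22 and 31 without it, and 8536, 7798 and 5731 called genes. Depth did not limit the members, all far above the floor, but POLE2 had the largest SE, up to 0.17.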

Other observations

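Regulators of the G1/S transition and mitosis genes were also counted, from lists of 24 and 16. Of all tested genes 22.6% were lower and 23.9% higher with H2O2, 21.0% and 22.0% in the labelled knockdown against ShNC + H2O2, and 15.1% and 17.4% against ShNC. Of the G1/S regulators 7 fell and 6 rose with H2O2 in ShNC (median -0.11), 8 were lower and 4 higher in the labelled knockdown than in ShNC + H2O2 (median -0.08), and 11 were lower and 3 higher than in ShNC (median -0.23). CCND1, the cyclin D that opens G1/S, averaged 29.9 ± 3.06 CPM in the labelled knockdown, against 124 ± 3.81 CPM in ShNC + H2O2 and 19.7 ± 0.401 CPM in ShNC (SD, n = 4 each). It rose with H2O2 (2.65 ± 0.07, adjusted p = 4.41e-13) and was lower in the labelled knockdown (-2.05 ± 0.07, adjusted p = 1.37e-11), with neighbours shifted by -0.02 and 0.05. CCND3 differed in the opposite directions in these comparisons, with -0.62 ± 0.10 (adjusted p = 9.07e-05) and 0.56 ± 0.10 (adjusted p = 2.69e-04). TFDP1, the partner of E2F proteins on DNA, averaged 123 ± 6.67 CPM in the labelled knockdown, against 95.1 ± 2.85 CPM in ShNC + H2O2 and 170.0 ± 2.21 CPM in ShNC and fell with H2O2 (-0.84 ± 0.06, adjusted p = 5.99e-09). E2F2, an activating E2F, was called higher with H2O2 (0.55). In the labelled knockdown against ShNC + H2O2 it was -0.83 ± 0.14 (adjusted p = 1.45e-04), and E2F5, a repressive one, was 0.73 ± 0.10 (adjusted p = 3.93e-05).

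Of the mitosis genes 10 fell and 0 rose with H2O2 (median -0.28), 5 were lower and 2 higher in the labelled knockdown than in ShNC + H2O2 (median -0.06), and 13 were lower and 0 higher than in ShNC (median -0.37). The kinases AURKA (-0.84 ± 0.09, adjusted p = 1.96e-06) and PLK1 (-0.79 ± 0.14, adjusted p = 2.32e-04) had the largest falls with H2O2. The mitotic kinesin KIF11 averaged 75 ± 1.88 CPM in the labelled knockdown, against 105 ± 4.24 CPM in ShNC + H2O2 and 109.6 ± 2.57 CPM in ShNC (SD, n = 4 each) and was -0.49 ± 0.05 (adjusted p = 2.62e-06) in the labelled knockdown against ShNC + H2O2. KIF20A, another mitotic kinesin, was lower too (-0.46 ± 0.10, adjusted p = 0.00119), while CDC20, which activates the anaphase-promoting complex, was higher (0.43 ± 0.07, adjusted p = 2.42e-04), as was PLK1 (0.36).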
